A study of Brassica rapa with 12 samples.

Results

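The 7 genes described here are the *Brassica rapa* homologs of DFR (Bra027457), ANS (Bra013652 and Bra019350), TT8 (Bra037887), TTG1 (Bra009770) and MYBL2 (Bra007957 and Bra016164). They were chosen by gene ID from a list of late anthocyanin genes and regulators, out of 42186 features counted in each library. The names come from that list alone. The deposited tables hold IDs without names, and 0 of the 7 IDs were found among the RefSeq genes of the CAAS_Brap_v3.01 assembly, so no position or sequence is given, and the names could not be checked against the data. Of all 42186 feature IDs only 1 was found there, so the miss is not particular to these 7 genes.

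RNA of whole seedlings aged 1 week was sequenced in 12 libraries from the *B. rapa* lines LP08 and Chiifu, whose names stand in the labels and of which Chiifu is a Chinese cabbage. The light groups grew under a daily 16 h light period with 8 h of darkness, and the dark groups had 24 h of darkness. The groups were light LP08, light Chiifu, dark LP08 and dark Chiifu, with 3 libraries each. The series title contrasts vegetable and oilseed types of the species, and no transgene or mutation is named for any group. Nothing in the labels says how long the dark lasted, whether a library pooled several plants, or whether libraries of a group came from separate plants, so a p-value here rests on the spread among libraries, part of which may be technical.

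Anthocyanins are the red to purple pigments of the flavonoid pathway, and seedlings of the cabbage family make them in response to light. DFR, dihydroflavonol reductase, makes leucoanthocyanidins, which ANS, anthocyanidin synthase, turns into the coloured anthocyanidins. In Arabidopsis the late genes are switched on by a complex of a MYB factor, a bHLH factor such as TT8 and the WD-repeat protein TTG1, and MYBL2 is a small MYB protein that represses them.

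Library totals ranged from 48773088 to 71764062 counts. Levels are given as CPM, counts per 1000000 counts of the library, after trimmed-mean (TMM) scaling, and 1 count was worth 0.0140 to 0.0204 CPM. CPM are not corrected for gene length, which the files do not give, so levels are compared between groups and never between genes. The mean correlation of a library with the others of its group, across genes, ran from 0.965 in Chiifu dark replicate 3 to 0.988, and the next lowest was LP08 light replicate 3 at 0.972. Chiifu dark replicate 3 also had the highest share of counts in non-coding RNA features, 2.90% against 0.557% to 1.79% in the other libraries, and several results that use it, but not all, are given with and without it.

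In light, LP08 seedlings had more transcript of both late enzymes, of the TT8 homolog and of the TTG1 homolog than Chiifu seedlings, and less of both MYBL2 homologs. The widest line differences in light were those of the ANS homolog Bra013652, 39.0-fold higher in LP08, and of the MYBL2 homolog Bra007957, 46.7-fold lower in LP08 (ratios of group means, n = 3 libraries each). Light raised the DFR homolog and both ANS homologs in each line and lowered the MYBL2 homolog Bra016164 in each line. For the TT8 homolog, the TTG1 homolog and Bra007957 the light comparison did not pass the test in either line. The call rule throughout was an adjusted p under 0.05 in edgeR's quasi-likelihood test over 31239 tested features. Whole seedlings were measured, so fewer cells that make a transcript and less transcript per cell cannot be told apart. The genome build used for counting is not given. Whether reads of both lines match its gene models equally well was not tested, so line differences and copy shares are differences in counted reads.

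**Figure D1:**
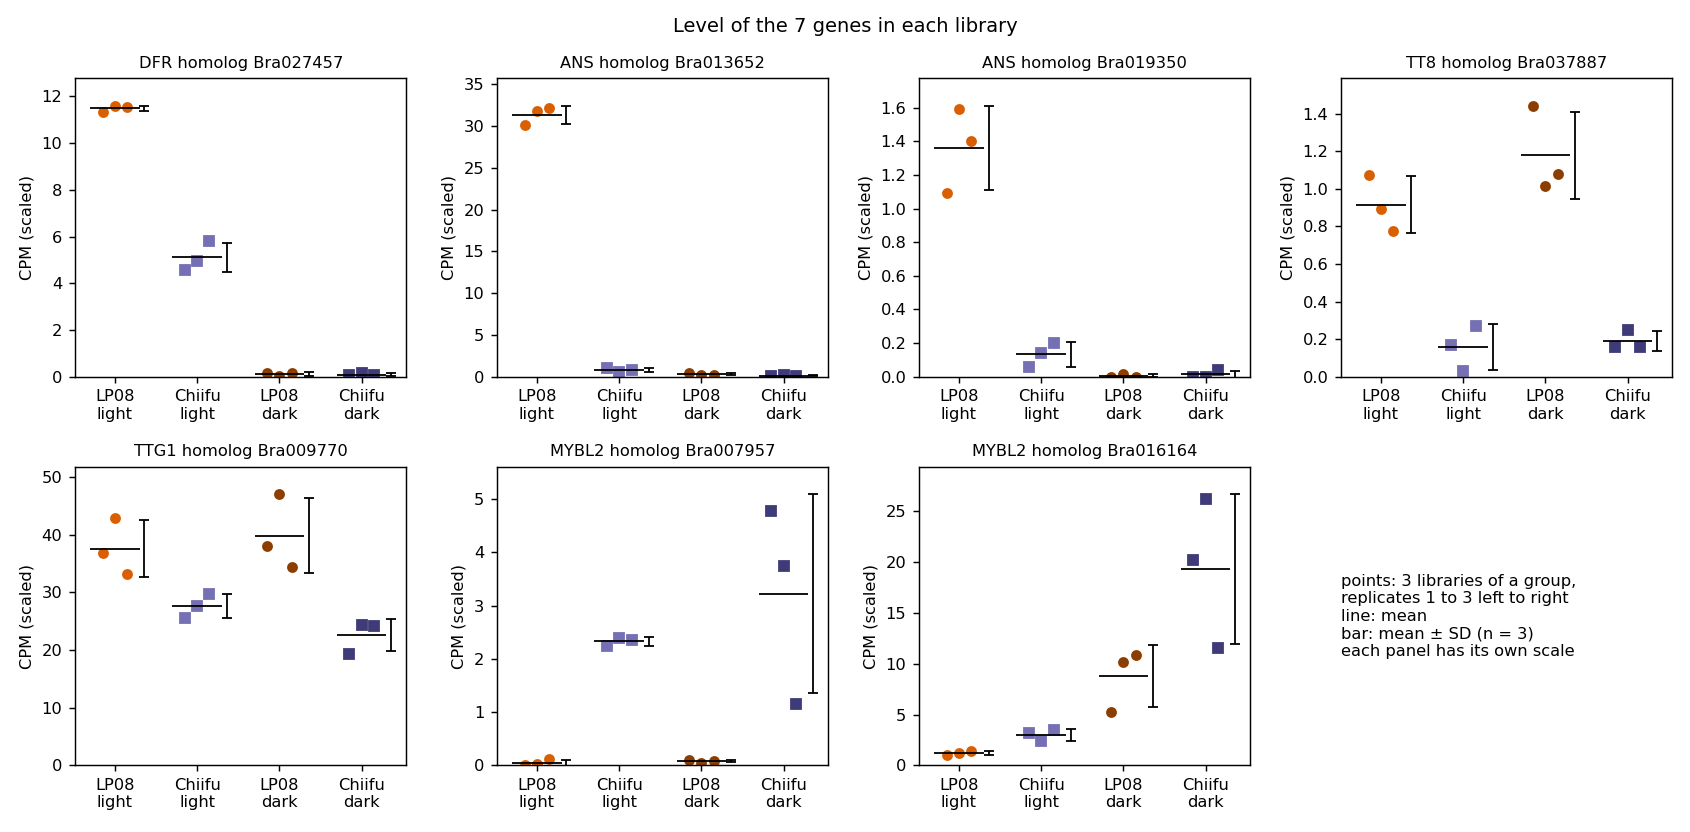
Level of each of the 7 genes in scaled CPM (vertical axis, from 0, a separate scale in each panel) in the 3 libraries of each group (horizontal axis), with the mean as a line and mean ± SD as a bar. DFR and ANS homologs are high in light, most of all in LP08, the TT8 homolog is high in LP08 in either treatment, and Bra007957 is above 1 CPM only in Chiifu libraries.

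The DFR homolog Bra027457 was at 11.3, 11.6 and 11.5 CPM in light LP08 and at 4.58, 4.94 and 5.81 CPM in light Chiifu. Dark LP08 libraries held 0.156, 0.0356 and 0.163 CPM, and dark Chiifu libraries 0.0633, 0.147 and 0.0600 CPM. The 3 light LP08 libraries thus lay close together and above every light Chiifu library, and the dark libraries, with 2 to 10 counts each, overlapped between the lines. The order of the groups was light LP08, light Chiifu, then the 2 dark groups, which did not differ beyond their spread. Bra027457 passed the filter on low counts through the light groups alone, so its light comparisons are of a gene kept because it is high there.

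Light raised Bra027457 97.2-fold in LP08 (11.5 ± 0.12 against 0.118 ± 0.07 CPM, SD, n = 3 each, log2 fold change 6.61, SE 0.37, edgeR adjusted p = 2.77e-08). The rise in Chiifu was 56.7-fold (5.11 ± 0.63 against 0.0901 ± 0.05 CPM, log2 fold change 5.75, SE 0.37, adjusted p = 9.43e-08). The light response was not shown to differ between the lines, with a log2 difference of 0.85 (LP08 minus Chiifu, 95% interval -0.39 to 2.10, adjusted p = 0.286). In light, LP08 was 2.25-fold above Chiifu (log2 fold change 1.17, SE 0.26, adjusted p = 0.00345). In the dark the log2 difference of the lines was 0.31 with an interval of -0.76 to 1.39 (adjusted p = 0.618).

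The ANS homolog Bra013652 showed the largest gap between lines in light among the genes that were higher in LP08. It was at 30.1, 31.8 and 32.2 CPM in light LP08 and at 1.04, 0.544 and 0.830 CPM in light Chiifu. Dark LP08 seedlings had 0.448, 0.178 and 0.244 CPM of it, and dark Chiifu seedlings 0.0791, 0.206 and 0.0600 CPM. Every light LP08 library was far above all others, the light Chiifu libraries came next, and the dark groups overlapped at their edges, with LP08 replicate 2 below Chiifu replicate 2.

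Bra013652 rose 108-fold with light in LP08 (31.4 ± 1.08 against 0.290 ± 0.14 CPM, SD, n = 3 each, log2 fold change 6.75, SE 0.38, adjusted p = 2.70e-08). The rise in Chiifu was 7.01-fold (0.805 ± 0.25 against 0.115 ± 0.08 CPM, log2 fold change 2.73, SE 0.41, adjusted p = 9.90e-05). Without Chiifu dark replicate 2 the log2 fold change in Chiifu was 3.47 (adjusted p = 4.98e-05). This was the 1 gene of the 7 for which the light responses were called different, by 4.03 on the log2 scale (SE 0.61, 95% interval 2.69 to 5.37, edgeR adjusted p = 0.000749). Of all tested features 29.2% were called, 14.8% as a higher response in LP08 and 14.4% as a lower one. The difference ran from 3.28, without Chiifu dark replicate 2, to 4.48 over 20 alternative settings and was called in each. Ranked by fitted difference from the most positive, Bra013652 stood 362nd of 31239 features.

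In light, Bra013652 was 39.0-fold higher in LP08 than in Chiifu (log2 fold change 5.28, SE 0.34, adjusted p = 1.97e-07). In the dark it was called 2.53-fold higher in LP08 (log2 fold change 1.25, SE 0.48, adjusted p = 0.0421), on 45 counts against 22 over 3 libraries each. That call was lost in 13 of 21 settings, with adjusted p-values up to 0.203. The log2 fold change ran from 0.80 without LP08 dark replicate 1 to 2.00 without Chiifu dark replicate 2, where the adjusted p was 0.00771.

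The second ANS homolog, Bra019350, followed the same order in light at a low level. It was at 1.10, 1.59 and 1.40 CPM in light LP08 and at 0.0571, 0.140 and 0.200 CPM in light Chiifu. Dark seedlings had 1 count of it over the 3 LP08 libraries and 2 counts over the 3 Chiifu libraries, both of them in replicate 3. The light libraries of the lines did not overlap, and the dark level was at the limit of the depth in both lines. Bra019350 passed the filter on low counts through light LP08 alone, so comparisons with that group are of a gene kept because it is high there.

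Pooled over libraries, the light level of Bra019350 was 215 times the dark level in LP08 (218 counts against 1, exact 95% interval of the ratio 38.2 to 8528, edgeR adjusted p = 1.44e-05). In Chiifu it was 12 times the dark level (28 counts against 2, interval 3.02 to 104, adjusted p = 0.00721). The fitted log2 fold change was 7.33 in LP08 and 9.34 without LP08 dark replicate 2, which holds the 1 count, and 3.33 in Chiifu and 6.01 without Chiifu dark replicate 3. The counting intervals cover counting error only. In light it was 10.3-fold higher in LP08 (1.36 ± 0.25 against 0.132 ± 0.07 CPM, SD, n = 3 each, log2 fold change 3.35, SE 0.59, adjusted p = 0.000663). The difference of its light responses did not pass the test (adjusted p = 0.135), with a 95% interval of -0.15 to 8.16 on the log2 scale. It was called by the DESeq2 test (adjusted p = 0.0473) and by limma-voom (adjusted p = 0.0288), and without Chiifu dark replicate 3, which holds both dark Chiifu counts, the difference was 1.33 (adjusted p = 0.798).

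**Figure D2:**
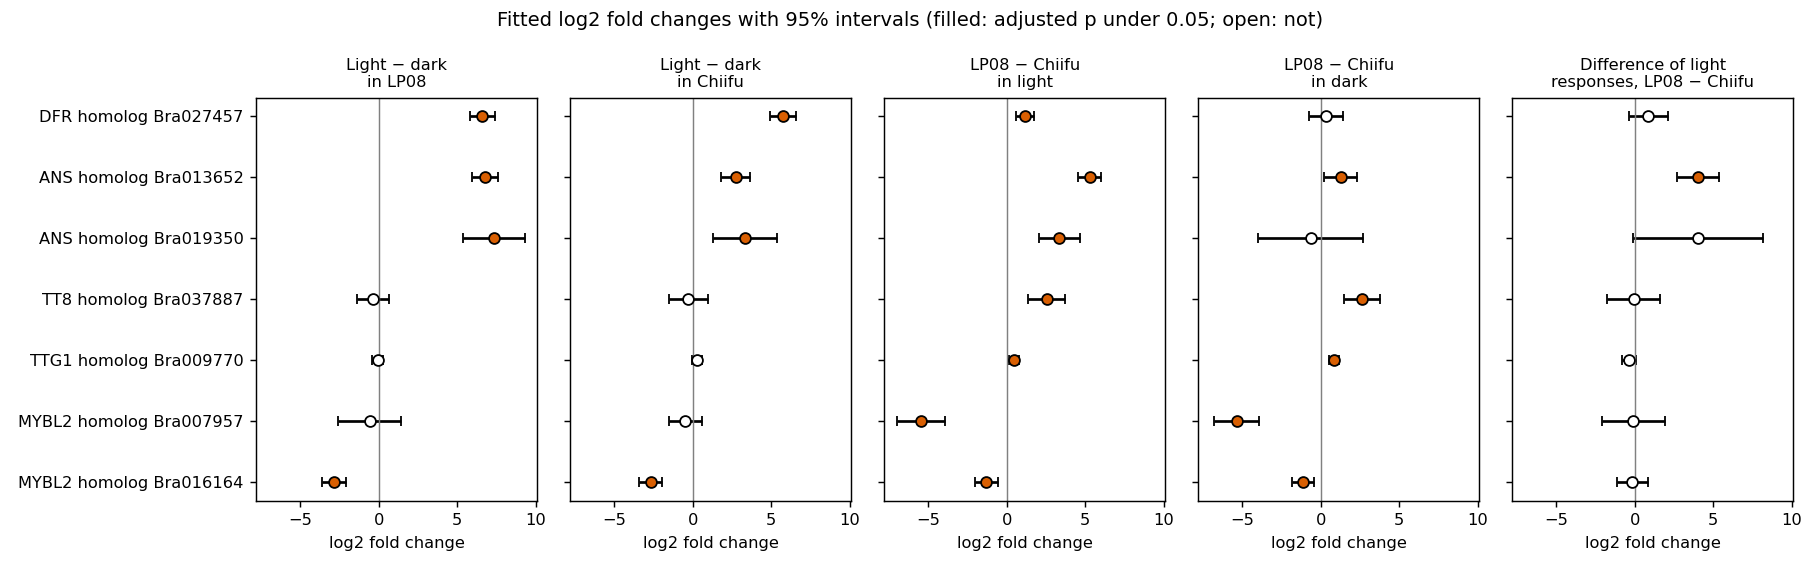
Fitted log2 fold change of each gene (rows) in the 5 comparisons (panels, the same log2 axis in each), with 95% intervals from the edgeR fit, filled where the adjusted p was under 0.05. In the panel of LP08 minus Chiifu in light all 7 points are filled, and in the panel of the difference of light responses only that of Bra013652 is.

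The regulators of the complex differed between the lines in both treatments. The TT8 homolog Bra037887, the bHLH member, was at 1.08, 0.894 and 0.778 CPM in light LP08 and at 0.171, 0.0279 and 0.272 CPM in light Chiifu. Dark LP08 libraries had 1.44, 1.01 and 1.08 CPM and dark Chiifu libraries 0.158, 0.250 and 0.160 CPM. All 6 LP08 libraries lay above all 6 Chiifu libraries, and within each line the light and dark libraries overlapped.

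Bra037887 was 5.83-fold higher in LP08 in light (0.916 ± 0.15 against 0.157 ± 0.12 CPM, SD, n = 3 each, log2 fold change 2.53, SE 0.53, adjusted p = 0.00206). In the dark it was 6.22-fold higher in LP08 (1.18 ± 0.23 against 0.189 ± 0.05 CPM, log2 fold change 2.61, SE 0.53, adjusted p = 0.00130). The Chiifu levels rest on few counts, 33 in light and 35 in the dark over 3 libraries each. The light comparison gave a log2 fold change of -0.36 in LP08 (95% interval -1.39 to 0.66, adjusted p = 0.514). In Chiifu it gave -0.28 (interval -1.51 to 0.95, adjusted p = 0.675). Chiifu light replicate 2 held 2 counts of this gene, and without it the Chiifu value was 0.21 (adjusted p = 0.670) and the line difference in light was 2.04 (adjusted p = 0.00228). Without Chiifu light replicate 3 that line difference was 3.17 (adjusted p = 0.00167).

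The TTG1 homolog Bra009770 was read in every library, and the ratio of its highest to its lowest group mean was smaller than for the other 6 genes. It was at 36.8, 42.8 and 33.2 CPM in light LP08 and at 25.5, 27.6 and 29.8 CPM in light Chiifu. Levels in the dark were 38.1, 47.04 and 34.5 CPM in LP08, against 19.4, 24.3 and 24.1 CPM for Chiifu. The LP08 libraries were above the Chiifu libraries in both treatments, and light and dark overlapped in LP08 but not in Chiifu.

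Bra009770 was 1.76-fold higher in LP08 in the dark (39.9 ± 6.47 against 22.6 ± 2.79 CPM, SD, n = 3 each, log2 fold change 0.82, SE 0.15, adjusted p = 0.000647). In light it was 1.36-fold higher in LP08 (37.6 ± 4.87 against 27.6 ± 2.13 CPM, log2 fold change 0.44, SE 0.15, adjusted p = 0.0274). The call in light was lost with library totals in place of scaling (log2 fold change 0.27, adjusted p = 0.186) and without LP08 light replicate 1 or 2 or Chiifu light replicate 1 or 2 (adjusted p = 0.0564, 0.120, 0.0926 and 0.0698). Light against dark gave a log2 fold change of -0.08 in LP08 (95% interval -0.41 to 0.24, adjusted p = 0.635) and 0.29 in Chiifu (interval -0.03 to 0.61, adjusted p = 0.102). The difference of these responses was -0.37 (interval -0.83 to 0.08, adjusted p = 0.203).

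The repressor homologs were both lower in LP08, by very different factors. Bra007957 had 0, 2 and 6 counts in light LP08, which is 0 to 0.114 CPM, and was at 2.24, 2.39 and 2.36 CPM in light Chiifu. Dark LP08 libraries had 5, 3 and 4 counts, which is 0.0534 to 0.0975 CPM, and dark Chiifu libraries 4.78, 3.75 and 1.16 CPM. Every Chiifu library was far above every LP08 library, and Chiifu dark replicate 3 was the lowest of the Chiifu libraries. Bra007957 passed the filter on low counts through the Chiifu groups alone, so its line comparisons are of a gene kept because it is high there.

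In light Bra007957 was 46.7-fold lower in LP08 (0.0499 ± 0.06 against 2.33 ± 0.08 CPM, SD, n = 3 each, log2 fold change -5.48, SE 0.70, adjusted p = 5.42e-05), and the log2 fold change was -6.81 without LP08 light replicate 3, which holds 6 of the 8 LP08 counts (adjusted p = 1.05e-04). In the dark it was 41.7-fold lower in LP08 (0.0774 ± 0.02 against 3.23 ± 1.86 CPM, log2 fold change -5.36, SE 0.66, adjusted p = 3.36e-05). The light comparison in Chiifu did not pass the test (log2 fold change -0.47, 95% interval -1.52 to 0.57, adjusted p = 0.398). Without Chiifu dark replicate 3 it was -0.87 (adjusted p = 0.0511). In LP08 the light comparison rested on 8 counts against 12 (log2 fold change -0.59, interval -2.61 to 1.43, adjusted p = 0.592). It was -1.93 without LP08 light replicate 3 (adjusted p = 0.175) and -0.06 without LP08 light replicate 1 (adjusted p = 0.969).

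Bra016164, the other MYBL2 homolog, was at 1.04, 1.20 and 1.44 CPM in light LP08 and at 3.17, 2.37 and 3.53 CPM in light Chiifu. Dark LP08 libraries had more, 5.28, 10.1 and 10.9 CPM, and dark Chiifu libraries the most, 20.3, 26.2 and 11.6 CPM. The 4 groups did not overlap, and their order was dark Chiifu, dark LP08, light Chiifu and light LP08. LP08 dark replicate 1 and Chiifu dark replicate 3 were the low libraries of their groups.

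Light lowered Bra016164 7.17-fold in LP08 (1.23 ± 0.20 against 8.78 ± 3.05 CPM, SD, n = 3 each, log2 fold change -2.84, SE 0.35, adjusted p = 1.48e-05). The fall was 6.39-fold in Chiifu (3.03 ± 0.59 against 19.3 ± 7.36 CPM, log2 fold change -2.68, SE 0.33, adjusted p = 1.91e-05). The difference of the responses was -0.16, with a 95% interval of -1.15 to 0.83 (adjusted p = 0.837). LP08 was 2.47-fold below Chiifu in light (log2 fold change -1.30, SE 0.34, adjusted p = 0.00793) and 2.20-fold below it in the dark (-1.14, SE 0.31, adjusted p = 0.00919). Without Chiifu dark replicate 3 the dark difference was -1.40 (adjusted p = 0.00116). In light the call was lost with limma-voom (-1.29, adjusted p = 0.0680).

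The calls of the 7 genes are set here beside those of all tested features. LP08 against Chiifu in light called 5 of the 7 higher and 2 lower, where 46.4% of all tested features were called, 21.4% higher and 25% lower. The libraries of the 2 groups did not overlap for 7 of the 7, as for 64.6% of all features. The median log2 fold change was 1.17 over the 7 genes and -0.02 over all features. In the dark 3 of the 7 were called higher in LP08 and 2 lower, where 53.3% of all features were called, 25.4% higher and 27.9% lower. The dark groups of the lines did not overlap for 4 of the 7, as for 57.7% of all features, and the median was 0.31 over the 7 genes and 0.00 over all features.

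Light against dark in LP08 called 3 of the 7 higher and 1 lower, where 68.5% of all features were called, 33.1% higher and 35.4% lower. In Chiifu it also called 3 higher and 1 lower, where 67.5% of all features were called, 33.9% higher and 33.6% lower. Light and dark libraries did not overlap for 4 of the 7 in LP08, against 75.9% of all features, and for 5 of the 7 in Chiifu, against 70.3%. The share of the 7 genes called was no higher than that of all features in either line, and the medians were -0.08 over the 7 genes and -0.04 over all features in LP08, and 0.29 and 0.00 in Chiifu. The same 4 genes were called in both lines, the DFR homolog and both ANS homologs upward and Bra016164 downward.

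**Figure D3:**
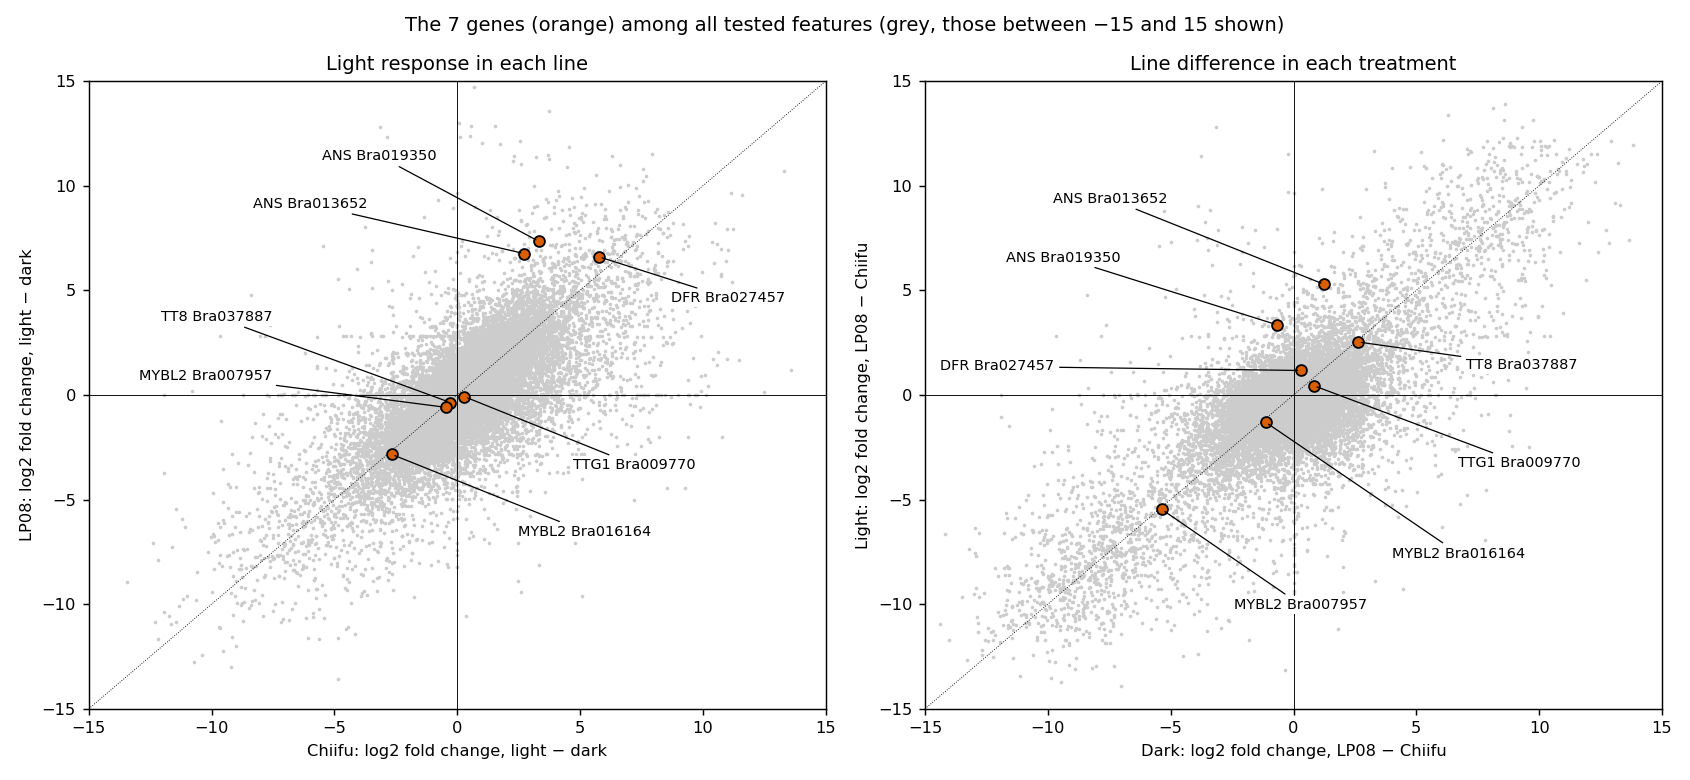
Fitted log2 fold changes of all tested features (grey) and the 7 genes (orange), with light minus dark in LP08 (vertical) against the same in Chiifu (horizontal) on the left, and LP08 minus Chiifu in light (vertical) against the same in the dark (horizontal) on the right. On the right the ANS homolog Bra013652 lies at 5.28 in light and 1.25 in the dark, above the dotted line of equal differences, while the TT8 homolog and both MYBL2 homologs lie close to it.

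Ratios of counts within a library do not depend on how libraries are scaled. Of 8 effects of line or light on 4 such ratios, which take in each gene but the TTG1 homolog, 5 passed the test. The line effect on TT8 over MYBL2 is among these 5, and its outcome follows from the single-gene values. The ratios are log2 values of counts with 0.5 added, not corrected for length, so their changes between groups are read and not their level. Each effect was tested two-sided by exact permutation, exchanging library labels within each level of the other factor. This gives 400 arrangements and a smallest p of 0.005, and p-values were adjusted over the 8 ratio tests. How reads that match both copies of a gene were counted is not given in the sources used here, so the split between copies is uncertain to that extent.

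The DFR homolog over the sum of the ANS homologs was at -1.46, -1.53 and -1.54 in light LP08 and at 2.05, 2.84 and 2.49 in light Chiifu. All light LP08 libraries were thus below all light Chiifu libraries, on 1824 and 5206 counts in LP08 and 1081 and 198 in Chiifu. In the dark it was -1.41 ± 0.82 in LP08 and -0.47 ± 0.18 in Chiifu (SD, n = 3 each), on 18 and 46 counts in LP08 and 17 and 24 in Chiifu. Averaged over light and dark, the effect of line, as LP08 minus Chiifu, was -2.45 (p = 0.01 by exact permutation, adjusted p = 0.02). Averaged over the lines, the effect of light was 1.41 (exact p = 0.065, adjusted p = 0.0743). From dark to light the group mean went from -1.41 to -1.51 in LP08 and from -0.47 to 2.46 in Chiifu. The averaged effect thus hides unlike changes in the lines, whose difference was not tested.

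The TT8 homolog over the sum of the MYBL2 homologs, an activator over a repressor, was highest in light LP08 at 0.05, -0.46 and -0.99. Light Chiifu libraries were at -4.92, -7.09 and -4.40, dark LP08 libraries at -1.89, -3.32 and -3.34, and dark Chiifu libraries at -7.24, -6.86 and -6.23. No LP08 library overlapped a Chiifu library, and the line effect was 4.47 (exact permutation p = 0.005, adjusted p = 0.02). The effect of light was 1.84 (exact p = 0.015, adjusted p = 0.024). Light and dark ratios did not overlap in LP08 but overlapped in Chiifu, where the -7.09 of light replicate 2 rests on 2 counts of the TT8 homolog. With light the TT8 homolog itself was not called in either line, while the MYBL2 homolog Bra016164 was called lower in each. The effect of light was no longer called without Chiifu light replicate 3 (1.57, adjusted p = 0.056) or Chiifu dark replicate 1 (1.73, adjusted p = 0.056).

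Of the counts of the MYBL2 pair, Bra007957 held 3.94% in light LP08 (exact Clopper-Pearson 95% interval 1.72 to 7.62, counting error only) and 43.6% in light Chiifu (40.6 to 46.5). In the dark it held 0.864% in LP08 (0.447 to 1.5) and 14.5% in Chiifu (13.4 to 15.5). On the log2 scale the ratio of Bra007957 to Bra016164 was -5.01 ± 1.59 for LP08 and -0.36 ± 0.32 for Chiifu in light, and -6.62 ± 0.89 for LP08 and -2.73 ± 0.62 for Chiifu in the dark (SD, n = 3 each). The line effect was -4.27 (exact permutation p = 0.005, adjusted p = 0.02) and the effect of light 1.99 (exact p = 0.01, adjusted p = 0.02). For the effect of light, the LP08 ratios rested on 8 counts of Bra007957 in light and 12 in the dark. Light and dark ratios overlapped in LP08 and did not overlap in Chiifu. The size of the line effect depends on the count added, since Bra007957 had 0 to 6 counts in each LP08 library: with 5 in place of 0.5 it was -2.92 (adjusted p = 0.01). The sum of the pair was 1.28 ± 0.26 CPM for LP08 and 5.35 ± 0.57 CPM for Chiifu in light, and 8.86 ± 3.04 CPM for LP08 and 22.6 ± 8.87 CPM for Chiifu in the dark.

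The share of Bra013652 in the counts of the ANS pair was 95.8% in light LP08 (exact binomial 95% interval 95.2 to 96.3), 85.9% in light Chiifu (80.2 to 90.4), 97.8% in dark LP08 (88.5 to 99.9) and 91.7% in dark Chiifu (73.0 to 99.0). The line effect on the log2 ratio of the copies was 1.64 (exact permutation p = 0.065, adjusted p = 0.0743) and the effect of light -0.04 (exact p = 0.965, adjusted p = 0.965). The dark ratios rest on 1 and 2 counts of Bra019350, and the sign of the effect of light changed with the pseudocount.

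**Figure D4:**
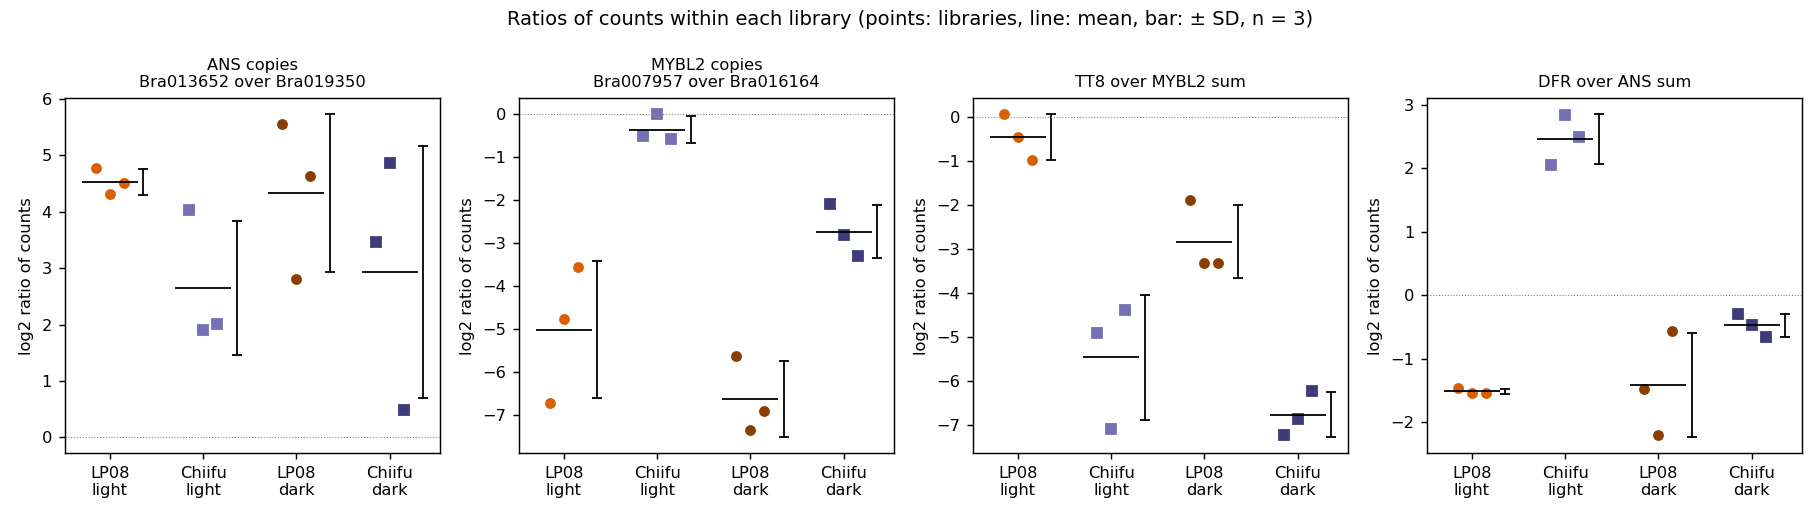
Log2 ratios of counts within each library (vertical axis) by group (horizontal axis), with the 3 libraries as points, the mean as a line and mean ± SD as a bar. The DFR to ANS ratio is near -1.5 in light LP08 and above 2 in light Chiifu, and the TT8 to MYBL2 ratio is higher in every LP08 library than in any Chiifu library.

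The 4 group means of log2 CPM, each profile centred on its own mean, were used to measure how alike the profiles are. Compared with the DFR homolog, the ANS homologs differed by a root mean square of 1.41 (Bra019350) and 1.62 (Bra013652) log2 units and ranked 791st and 1264th of 31238 other features. The TTG1 and TT8 homologs were at 2.92 and 3.30, and the MYBL2 homologs Bra007957 and Bra016164 at 4.24 and 4.41, with ranks of 28754 and 29302. Bra019350 ranked 53rd in likeness to Bra013652, at 1.05 log2 units. The 2 counts added before taking logs draw the profile of a gene with few counts towards 0.

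Among 17858 features whose highest group mean reached 10 CPM, Bra032624 and Bra019909 had the profiles most like the DFR homolog, at 0.138 and 0.156 log2 units over the 4 groups. Bra032624 averaged 18.3 ± 3.73 CPM for LP08 and 7.54 ± 1.08 CPM for Chiifu in light, and 0.332 ± 0.31 CPM for LP08 and 0.264 ± 0.21 CPM for Chiifu in the dark (SD, n = 3 each). Bra019909 averaged 17.7 ± 6.66 CPM for LP08 and 7.83 ± 0.74 CPM for Chiifu in light, and 0.167 ± 0.03 CPM for LP08 and 0.109 ± 0.05 CPM for Chiifu in the dark. The files give neither ID a name. The other genes of the pathway, such as chalcone synthase and the MYB partners of TT8, could not be joined to IDs and are not analysed here.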

How the data were processed

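Each library has its own table of deposited counts per feature. The values are whole numbers whose totals differ between libraries, so no normalization by the authors is seen in them. Per the labels' protocols, libraries were made with a stranded mRNA kit, and FastQC, TopHat2, featureCounts and edgeR stand without version or role in the submitters' processing notes. The genome build, the annotation and the strand setting of the counting were not given in the sources used here.

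Counts were tested in R 4.3.3 with edgeR 4.0.16 (quasi-likelihood F-test, robust). Features were kept by filterByExpr by group (minimum count 10, minimum total 15), which left 31239 of 42186. Scaling was by the trimmed mean of M values of the tested features, and 1 fit of 4 group means over all 12 libraries gave every contrast. P-values were adjusted by the Benjamini-Hochberg method across every feature tested. SEs follow from the F statistics, and 95% intervals from the fitted degrees of freedom. All 7 genes passed the filter. The procedure was tested on simulated counts.

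The genes, ratios and alternatives (limma 3.58.1, DESeq2 1.42.0, other scalings, filters, a replicate block and left-out libraries) were chosen with earlier results of these data known. The 7 genes were all named, with the 2 other features most like the DFR homolog. Every pair of libraries in a group differed beyond counting noise (chi-square per degree of freedom at least 13.7). Intervals of counts and shares cover counting error only.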

Additional observations from a re-analysis of the deposited data

Results flagged for a closer look

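The ANS homolog Bra013652 is listed because the test of the difference itself called its light response different between the lines. The log2 fold change with light was 6.75 in LP08 and 2.73 in Chiifu, a difference of 4.03 (edgeR adjusted p = 0.000749). All 3 light LP08 libraries, at 30.1 to 32.2 CPM, were above all 3 light Chiifu libraries, at 0.544 to 1.04 CPM. For the other 6 genes the difference did not pass the test. Of all tested features 29.2% were called for this difference, so such a call is common in these data.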

How the results depend on the processing

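Line differences in light of Bra027457, both ANS homologs, the TT8 homolog and Bra007957 were called in the same direction in each setting that gave a value, as were the light responses of Bra027457, both ANS homologs and Bra016164. Bra019350 was not tested at a filter of 1 CPM in 3 libraries. That filter left 2 in place of 3 genes called higher with light in each line. Of the 7 genes, 4 in place of 5 were called higher in LP08 in light under that filter and in the settings without the TTG1 call, and 2 in place of 3 were called higher in LP08 in the dark in the 13 settings without the Bra013652 call. With 1 library left out these counts ran from 4 to 5 and from 2 to 3. In light 1 in place of 2 were lower in LP08 with limma-voom, and 2 in place of 1 had a higher response in LP08 with the DESeq2 test and limma-voom. Leaving out both Chiifu dark replicate 3 and LP08 light replicate 3, an alternative chosen after seeing the data, gave 2 in place of 1 lower with light in each line, as Bra007957 was then called (log2 fold change -1.93 in LP08, adjusted p = 0.0457, against 0.175 without LP08 light replicate 3 alone, and -0.88 in Chiifu, adjusted p = 0.0129). With library totals the median log2 fold change of all features was -0.24 for light in LP08, -0.10 for light in Chiifu and -0.19 for LP08 against Chiifu in light.

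Signs changed for values that were not called. With 1 library left out, the log2 fold change ranged from -0.20 to 0.052 for Bra009770 with light in LP08, from -0.93 to 0.21 for Bra037887 with light in Chiifu, and from -2.66 to 2.02 for Bra019350 between lines in the dark (2.03 without both libraries named above). The difference of the responses ranged from -0.58 to 0.56 for Bra037887, from -1.45 to 0.42 for Bra007957 and from -0.44 to 0.10 for Bra016164. For Bra037887 it was 0.35 with limma-voom, 0.0089 with the replicate block and 0.12 without both libraries. The cause of these changes was not tested.

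Of the ratios, the effect of light on the ANS copies was 1.84 with a pseudocount of 5 (adjusted p = 0.0171), and it ranged from -0.66 to 0.44 with 1 library left out. The line effect on the ANS copies was 1.57 with a pseudocount of 5 (adjusted p = 0.0171) and 1.03 to 2.12 with 1 library left out. With 1 library left out the effect of light ranged from 1.57 to 2.25 for TT8 over MYBL2 and from 1.22 to 1.63 for DFR over ANS, where it was called without LP08 dark replicate 3 (adjusted p = 0.0267).

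Replicate numbers are shared across groups, and same-numbered libraries deviated together in 8 of 18 pairs (correlation above 0.1, range -0.25 to 0.30). Differently numbered libraries were not compared in this way, so the check cannot decide whether the numbers mark pairing. The main tests did not take them as pairing. With the replicate block, Bra013652 in the dark was no longer called (adjusted p = 0.0649). The ratio effects of 1.99 and -4.27 (MYBL2 copies), 1.84 and 4.47 (TT8 over MYBL2) and -2.45 (DFR over ANS) had adjusted p = 0.1 with the block. For ratios the block allows fewer arrangements than the main permutation test, so its smallest possible p is larger. The loss of these ratio calls therefore cannot decide whether the effects depend on pairing. Depth limits the dark values of Bra027457 and both ANS homologs and the LP08 values of Bra007957.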
